A study of Homo sapiens with 17 samples.

Results

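Transcript levels are described here for the genes that detect DNA double-strand breaks and relay the signal to the checkpoint kinases. The 10 genes were taken by symbol from the per-library count files: the apical kinases ATM and ATR, the break sensor genes MRE11, RAD50 and NBN, the histone variant gene H2AX, the mediator genes MDC1 and TP53BP1, and the checkpoint kinase genes CHEK1 and CHEK2. All 10 symbols are among the 41040 named genes of the files, and 9 of them are among the 16891 genes with enough counts to be tested. MDC1 is listed at 0 in every library.

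The cells were IMR-90, a diploid fibroblast line from human fetal lung. The week 0 group (n = 5 libraries) received no drug. The week 1 and week 4 groups (n = 6 libraries each) received 20 µM etoposide for 48 h to induce senescence, a lasting arrest of growth, and were then grown without it until harvest. Etoposide traps topoisomerase II on DNA and so leaves double-strand breaks. All groups are the same line, and no untreated cells were sampled at week 1 or week 4, so drug treatment and time in culture cannot be told apart. Whether replicates came from different cultures is not stated, so each p-value reflects only library-to-library spread, which could be technical.

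Libraries held 77162364 to 102815295 counts. All 10 listed fibroblast markers were above 1 CPM (counts relative to the library total after scaling by TMM, the trimmed mean of M values, in parts of 1000000) in each group, and their sum ran from 29804 to 60632 CPM over the libraries. Leukocyte markers summed to at most 0.944 CPM. Epithelial markers, of which 3 of 8 were above 1 CPM in each group and KRT18 was the highest, summed to between 58.7 and 66.3 CPM at week 0, 242.8 and 282 CPM at week 1, and 201 and 227 CPM at week 4. Endothelial markers (2 of 6 above 1 CPM in each group) summed to 75.9 to 93.5, 59.8 to 64.3 and 54.6 to 81.7 CPM at weeks 0, 1 and 4, and smooth muscle and pericyte markers (4, 5 and 5 of 6 above 1 CPM) to 404 to 474, 589 to 616 and 576 to 604 CPM. No listed marker was at 0 in all libraries. These sums moved with the groups compared below, and their part in the results was not tested. Ribosomal protein genes took 5.95% and 5.18% of counts in week 0 replicates 1 and 4, while the remaining untreated libraries had 3.17% to 3.84%.

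A double-strand break is bound by the complex of MRE11, RAD50 and NBN, which recruits and activates the kinase ATM, while ATR responds to single-stranded DNA at resected ends and stalled forks. ATM phosphorylates the tail of histone H2AX around the break, MDC1 binds this mark, and a ubiquitin cascade then brings in 53BP1, the product of TP53BP1. ATM and ATR pass the signal to the kinases CHK2 and CHK1, encoded by CHEK2 and CHEK1, which hold back the cell cycle. These proteins are controlled largely by phosphorylation, which transcript counts do not measure.

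The promoters of H2AX and CHEK1, the members that fell most, and of ATM, the member that rose most, are shown because the members did not move together. They are RefSeq windows of 300 bases (250 before and 50 from the gene start, GRCh38.p14), given 5′ to 3′ on the gene's strand: H2AX at chr11:119095416-119095715, minus strand, CHEK1 at chr11:125625979-125626278, plus strand (the first of 3 listed starts), and ATM at chr11:108222817-108223116, plus strand (the first of 2). Capitals mark matches, on either strand, to CCAAT (the NF-Y box), to TTTGAA or TTCGAA (the cell cycle genes homology region, CHR) and to the E2F words TTTCCCGC, TTTCGCGC, TTTGCCGC and TTTGGCGC.
H2AX: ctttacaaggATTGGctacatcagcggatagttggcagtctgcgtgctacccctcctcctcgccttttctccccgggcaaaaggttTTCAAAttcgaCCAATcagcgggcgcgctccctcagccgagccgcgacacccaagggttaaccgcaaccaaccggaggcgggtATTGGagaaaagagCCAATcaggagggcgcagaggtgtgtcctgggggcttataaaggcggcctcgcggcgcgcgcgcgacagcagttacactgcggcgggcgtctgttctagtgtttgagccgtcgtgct
CHEK1: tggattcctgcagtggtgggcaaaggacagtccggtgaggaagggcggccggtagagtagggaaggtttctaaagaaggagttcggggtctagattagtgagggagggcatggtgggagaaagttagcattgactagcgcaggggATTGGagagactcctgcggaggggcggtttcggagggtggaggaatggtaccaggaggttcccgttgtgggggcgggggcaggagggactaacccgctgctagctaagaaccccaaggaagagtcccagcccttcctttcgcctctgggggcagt
ATM: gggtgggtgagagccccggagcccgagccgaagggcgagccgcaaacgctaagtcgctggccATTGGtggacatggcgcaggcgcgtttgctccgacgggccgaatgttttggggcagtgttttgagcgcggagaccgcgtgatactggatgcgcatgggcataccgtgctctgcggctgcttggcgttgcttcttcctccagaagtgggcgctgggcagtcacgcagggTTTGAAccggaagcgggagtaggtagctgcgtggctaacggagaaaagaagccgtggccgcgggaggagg
The H2AX window held 4 CCAAT matches, the count reached by 0.991% of the 35116 listed promoters, and a CHR match at position -164 whose nearest CCAAT match began at position -153. The CHEK1 window held 1 CCAAT match, at position -105, while the window of the third CHEK1 start held 3. The ATM window held 1 CCAAT match at position -188 and a CHR match at position -20, and it shared 72 bases with the window of NPAT, a histone gene activator transcribed in the opposite direction. The window of the second ATM start held 2 CCAAT matches and no CHR match. Windows were listed for 9 members, 12 windows in all, and NBN was not matched. CCAAT was found in at least 1 window of 7 of these members, and CHR in at least 1 of 3 (ATM, H2AX and MDC1). Of all listed promoters 34.6% and 16.4% held them, counted per single window, so the units differ for ATM (2 windows) and CHEK1 (3). The E2F words were in none of the 12 windows, against 3.31%. The words overlap in no base of the printed windows. Such a match is a description of letters and no evidence of binding, and a window without one says only that these letters are not in it.

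**Figure D1:**
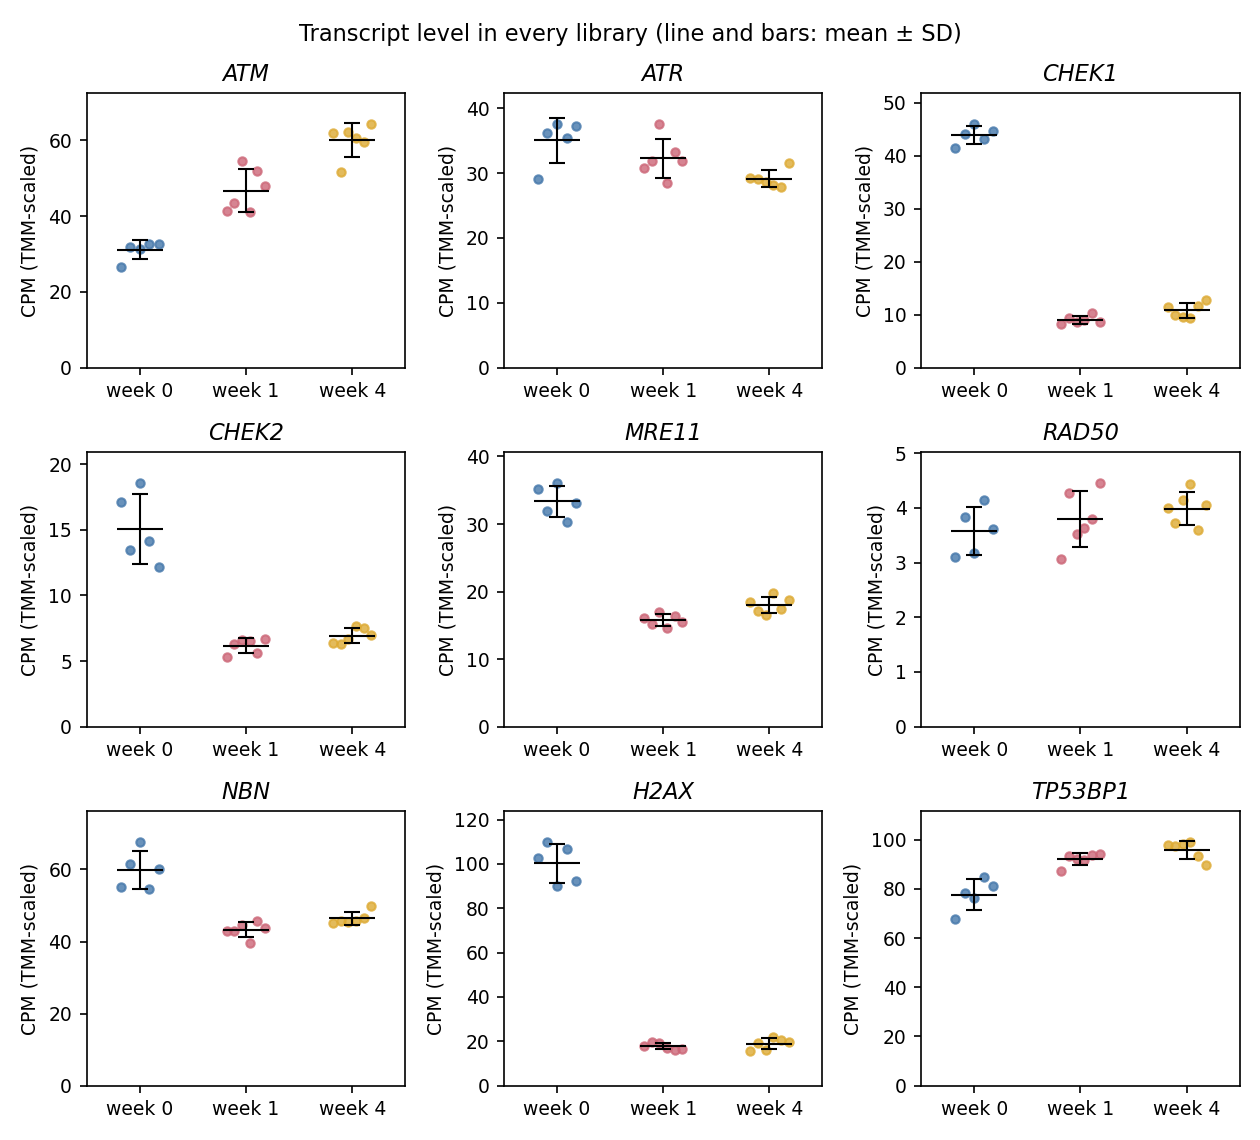
Level of each tested member in every library, in CPM on TMM-scaled library sizes (vertical axis from 0), by week. Points are libraries, and the line and bars are the mean and SD. H2AX and CHEK1 stand lowest relative to week 0 at both later times, and ATM is the only member with all week 1 and week 4 libraries more than 8 CPM above every week 0 library.

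The first comparison sets week 1 beside the untreated cells. H2AX, CHEK1, CHEK2, MRE11 and NBN fell, ATM and TP53BP1 rose, and ATR and RAD50 did not pass the test. In edgeR's quasi-likelihood test with Benjamini-Hochberg adjustment over all tested genes, 7 of 9 members were called at an adjusted p under 0.05 (5 lower, 2 higher), against a background of 66.9% of all tested genes called, 34% lower and 32.9% higher. The members' share of calls was therefore near that of all genes, and their median log2 fold change was -0.47, against -0.02 for all tested genes. For 7 of the 9 the libraries of the groups did not overlap (48.7% of all tested genes). Of the members, 4 fell by more than 2-fold, where 9.08% of all tested genes did. In these bulk samples a change in the share of cells that carry a transcript and a change in the transcript per cell cannot be told apart.

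ATM, the kinase that answers double-strand breaks, stood at 26.7, 32.0, 31.3, 32.6 and 32.8 CPM in week 0 replicates 1, 3, 4, 5 and 6. At week 1 it ran from 41.1 to 54.5 CPM with a median of 45.8 CPM, and at week 4 from 51.5 to 64.3 CPM with a median of 61.2 CPM. All week 1 and week 4 libraries lay above all week 0 libraries, while weeks 1 and 4 overlapped. ATM rose 1.5-fold at week 1 (log2 fold change 0.59 ± 0.08 SE, edgeR adjusted p = 5.7e-07) and was 1.93-fold above week 0 at week 4 (0.95 ± 0.08, adjusted p = 3.3e-10). Between the treated times it rose a further 1.29-fold (0.36 ± 0.07, adjusted p = 3.5e-04).

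ATR, which answers single-stranded DNA, stood at 29.1, 36.2, 37.5, 35.4 and 37.3 CPM in the week 0 libraries, in the same order. It ran from 28.5 to 37.6 CPM (median 31.9) at week 1 and from 27.9 to 31.6 CPM (median 28.9) at week 4. The groups overlapped in each comparison. Week 0 replicate 1 lay within the range of both treated groups, and week 1 replicates 1 and 4 lay within that of week 4. The log2 difference from week 0 was -0.12 ± 0.07 SE at week 1 (edgeR adjusted p = 0.13) and -0.27 ± 0.07 at week 4, a 1.20-fold fall (adjusted p = 0.0016). The week 1 result turned on single libraries: without week 0 replicate 1 the log2 difference was -0.18 (adjusted p = 0.012), and without week 1 replicate 3 it was -0.17 (adjusted p = 0.031). From week 1 to week 4 the log2 difference was -0.15 ± 0.07 (adjusted p = 0.077), and it passed the test without week 0 replicate 1 (adjusted p = 0.031) and without week 1 replicate 4 (adjusted p = 0.034). An unnamed gene on the opposite strand shares 16.4% of the exonic bases of ATR in the GENCODE 29 annotation, and no strand setting of the counting is given.

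The ATM to ATR ratio was taken from raw counts within each library, so that no library scaling enters it. It was 0.833 to 0.922 at week 0, 1.35 to 1.56 at week 1 and 1.77 to 2.17 at week 4, with no overlap between any pair of groups. Relative to ATR, ATM was 1.63-fold higher at week 1 and 2.32-fold higher at week 4 than at week 0 (adjusted p = 0.0065 for each, exact two-sided permutation test, 15 tests). From week 1 to week 4 the ratio rose 1.43-fold (adjusted exact p = 0.0065). NPAT, whose promoter window overlaps that of ATM, differed from it against week 0 and rose with it between the treated times. NPAT fell 1.39-fold at week 1, from 20.1 ± 3.64 to 14.4 ± 1.12 CPM (edgeR adjusted p = 2.6e-04), and was at 17.9 ± 2.04 CPM at week 4, 1.24-fold above week 1 (log2 fold change 0.31, adjusted p = 0.013). Its week 4 value against week 0 was not called (log2 fold change -0.17, edgeR adjusted p = 0.15), and this turned on single libraries. It was called lower without week 0 replicate 1 (-0.27, adjusted p = 0.0043), without week 4 replicate 6 (-0.23, adjusted p = 0.048), without week 0 replicates 1 and 4 (-0.30, adjusted p = 0.0022) and without scaling factors (-0.36, adjusted p = 0.0039).

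The break sensor genes did not change alike. MRE11, which encodes the nuclease of the complex, stood at 35.1, 32.0, 36.1, 30.3 and 33.2 CPM in the week 0 libraries, at 14.6 to 16.99 CPM (median 15.8) at week 1 and at 16.6 to 19.8 CPM (median 17.9) at week 4. Every treated library lay below every untreated one. MRE11 fell 2.11-fold at week 1 (log2 fold change -1.08 ± 0.06 SE, edgeR adjusted p = 3.4e-13) and was 1.85-fold below week 0 at week 4 (-0.89 ± 0.06, adjusted p = 1.2e-11). It rose 1.14-fold from week 1 to week 4 (adjusted p = 0.011).

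NBN encodes nibrin, the subunit that binds ATM. It stood at 55.0, 61.5, 67.6, 54.6 and 60.2 CPM at week 0, at 39.6 to 45.6 CPM (median 43.4) at week 1 and at 45.3 to 49.8 CPM (median 45.7) at week 4. The treated libraries again lay below all untreated ones, by a smaller margin. NBN fell 1.38-fold at week 1 (log2 fold change -0.47 ± 0.05 SE, edgeR adjusted p = 8.7e-08) and was 1.29-fold below week 0 at week 4 (adjusted p = 3.2e-06).

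RAD50 encodes the long coiled-coil subunit that bridges DNA ends. Its counts were low, 274 to 433 per library, and stood at 3.10, 3.83, 3.17, 4.15 and 3.61 CPM at week 0, 3.06 to 4.46 CPM (median 3.71) at week 1 and 3.59 to 4.44 CPM (median 4.02) at week 4. The groups overlapped throughout. The log2 difference from week 0 was 0.08 ± 0.10 SE at week 1 (edgeR adjusted p = 0.50) and 0.16 ± 0.10 at week 4 (adjusted p = 0.19), and it changed sign without scaling factors, to -0.080 and -0.036. In the GENCODE 29 annotation an unnamed gene on the same strand, AC116366.3, shares 79.7% of the exonic bases of RAD50 (7784 of 9771). How reads in shared exons were assigned is not given in the sources used here, and the part of this overlap in the RAD50 values was not tested.

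The within-library ratios restate this contrast inside the complex from the same counts, without library scaling, and are no separate evidence. With RAD50 as the denominator, they also carry the exon overlap named above. The MRE11 to RAD50 count ratio went from 7.30 to 11.4 at week 0 to between 3.46 and 5.27 at week 1 and between 4.00 and 4.86 at week 4, a 2.24-fold and a 2.07-fold fall (adjusted exact permutation p = 0.0065 for each). The NBN to RAD50 ratio fell 1.46-fold at week 1, with overlapping libraries (adjusted exact permutation p = 0.012), and 1.44-fold at week 4 (adjusted exact p = 0.0065). Without week 0 replicates 1 and 4 the week 1 fall of this ratio was no longer called (adjusted exact permutation p = 0.065). Neither ratio differed detectably between weeks 1 and 4 (adjusted exact p = 0.42 and 0.83).

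**Figure D2:**
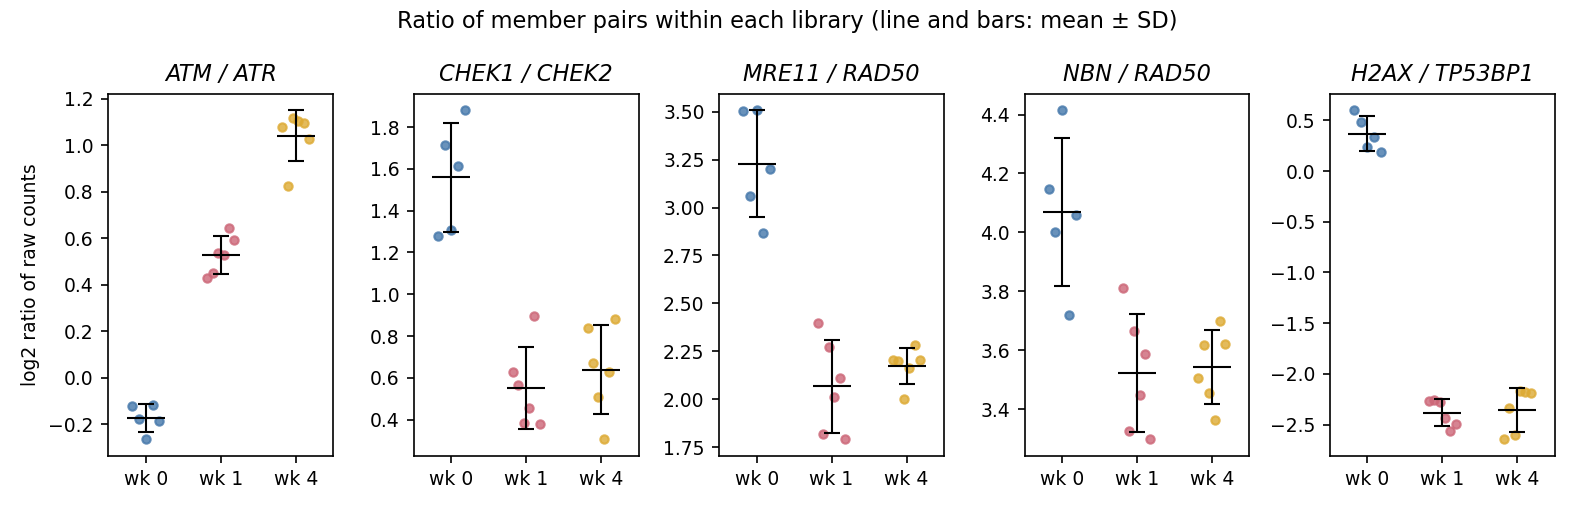
Ratio of raw counts of member pairs within each library (log2, vertical axis), by week. Points are libraries, and the line and bars are the mean and SD. ATM to ATR rises over all 3 groups without overlap, while the other 4 ratios stand lower at weeks 1 and 4 than at week 0 and overlap between weeks 1 and 4.

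H2AX encodes the histone variant whose phosphorylated form marks chromatin around a break. It stood at 102.9, 109.9, 89.8, 106.7 and 92.5 CPM at week 0, at 15.9 to 19.6 CPM (median 17.5) at week 1 and at 15.7 to 22.1 CPM (median 19.4) at week 4. Every treated library lay far below every untreated one. H2AX fell 5.66-fold at week 1 (log2 fold change -2.50 ± 0.08 SE, edgeR adjusted p = 4.4e-17) and was 5.31-fold below week 0 at week 4 (-2.41 ± 0.08, adjusted p = 9.1e-17). No difference between weeks 1 and 4 passed the test (0.09 ± 0.08, adjusted p = 0.37). Among all tested genes the week 1 value of H2AX lay at percentile 1.71 from the lowest.

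Of 5 other H2A variant genes, 4 fell and 1 rose at week 1, and all 5 were below week 0 at week 4. Of all tested genes, 34% were called lower and 32.9% higher at week 1, and 33.7% and 33.9% at week 4. H2AZ1, which encodes the variant H2A.Z found at promoters, fell 5.46-fold at week 1, from 293 ± 45.7 to 53.7 ± 1.69 CPM (edgeR adjusted p = 5.8e-18), and H2AZ2 fell 2.57-fold. H2AJ rose from 21.5 ± 3.58 to 28.8 ± 1.38 CPM at week 1 (adjusted p = 1.4e-04) and was below week 0 at week 4, at 17.3 ± 1.54 CPM (adjusted p = 0.0025).

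TP53BP1 encodes 53BP1, which gathers at the marked chromatin and favours end joining. It stood at 67.8, 78.4, 76.3, 84.7 and 81.3 CPM at week 0, at 87.3 to 94.2 CPM (median 92.6) at week 1 and at 89.7 to 99.1 CPM (median 97.5) at week 4. On these TMM-scaled levels all treated libraries lay above all untreated ones, and overlap was not examined without scaling factors. TP53BP1 rose 1.19-fold at week 1 (log2 fold change 0.25 ± 0.05 SE, edgeR adjusted p = 1.5e-04) and was 1.23-fold above week 0 at week 4 (0.30 ± 0.05, adjusted p = 1.2e-05). The week 1 call was lost when no scaling factors were used (log2 fold change 0.08, edgeR adjusted p = 0.11). At week 4 the log2 fold change ran from 0.11 to 0.37 over the other settings. TUBGCP4, on the opposite strand, shares 28.7% of the exonic bases of TP53BP1 in GENCODE 29, and no strand setting is given.

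H2AX and TP53BP1 thus went in opposite directions. The H2AX to TP53BP1 count ratio, a pair chosen after MDC1 was found to have no counts, was 1.14 to 1.52 at week 0, 0.170 to 0.210 at week 1 and 0.160 to 0.223 at week 4. It fell 6.73-fold at week 1 and 6.60-fold at week 4 (adjusted exact permutation p = 0.0065 for each). Weeks 1 and 4 did not differ detectably (adjusted exact p = 0.83).

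MDC1, the adaptor that reads phosphorylated H2AX, had a count of 0 in all 17 libraries. Of the 19 protein-coding genes in the files among its 10 nearest on each side in RefSeq order, 17 were also at 0 in every library and the highest count of the other 2 was 5. Among these is TUBB, a tubulin gene that dividing cells use widely, with a highest count of 0. Over all 19232 protein-coding genes matched to the files, 7.90% were at 0 in every library. The MDC1 entry is therefore a listed 0 in a block of listed zeros, its level cannot be read from these counts, and no fold change is given.

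CHEK1 encodes CHK1, the effector kinase of ATR. It stood at 41.5, 44.0, 46.0, 43.2 and 44.7 CPM at week 0, at 8.17 to 10.4 CPM (median 8.82) at week 1 and at 9.46 to 12.8 CPM (median 10.7) at week 4. The treated libraries lay far below the untreated ones, with no overlap. CHEK1 fell 4.87-fold at week 1 (log2 fold change -2.28 ± 0.08 SE, edgeR adjusted p = 6.4e-17) and was 4.06-fold below week 0 at week 4 (-2.02 ± 0.08, adjusted p = 5.0e-16). It rose 1.20-fold from week 1 to week 4, with overlapping libraries (0.26 ± 0.07, adjusted p = 0.0073).

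CHEK2 encodes CHK2, the effector kinase of ATM. It stood at 17.1, 13.4, 18.6, 14.1 and 12.1 CPM at week 0, at 5.30 to 6.66 CPM (median 6.42) at week 1 and at 6.28 to 7.65 CPM (median 6.82) at week 4. The week 0 libraries spread widely, and all lay above the treated ones. CHEK2 fell 2.45-fold at week 1 (log2 fold change -1.29 ± 0.10 SE, edgeR adjusted p = 1.1e-10) and was 2.18-fold below week 0 at week 4 (-1.12 ± 0.10, adjusted p = 1.1e-09). The change from week 1 to week 4 did not pass the test (0.17 ± 0.10, adjusted p = 0.18). CHEK2 has pseudogene copies, of which 7 are listed in the files with at most 1 count in any library.

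CHEK1 fell further than CHEK2. The CHEK1 to CHEK2 count ratio was 2.43 to 3.69 at week 0, 1.30 to 1.86 at week 1 and 1.24 to 1.84 at week 4. The 2.01-fold and 1.89-fold lower ratios at weeks 1 and 4 passed the exact permutation test (adjusted p = 0.0065 for each), and weeks 1 and 4 did not differ detectably (adjusted exact p = 0.54).

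The later time point asks how far these differences lasted. At week 4 against week 0, 8 of 9 members were called (6 lower, 2 higher), with 67.6% of all tested genes called, 33.7% lower and 33.9% higher. ATR was called in addition to the 7 members of week 1, which had the direction they had then. For 7 of 9 the libraries did not overlap (49% of all tested genes), 3 members were lower by more than 2-fold (7.55%), and the median log2 fold change was -0.37, against 0.00 for all tested genes. Both comparisons share the week 0 libraries. From week 1 to week 4, 3 members rose (ATM, CHEK1 and MRE11) and none was called lower, with 40.5% of all tested genes called, 21.8% higher and 18.6% lower. At an unadjusted edgeR p under 0.05 the count of lower members was 1 (ATR), and DESeq2 and limma-voom called 0 lower. In no member were the libraries of weeks 1 and 4 without overlap, where 30.2% of all tested genes had none.

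**Figure D3:**
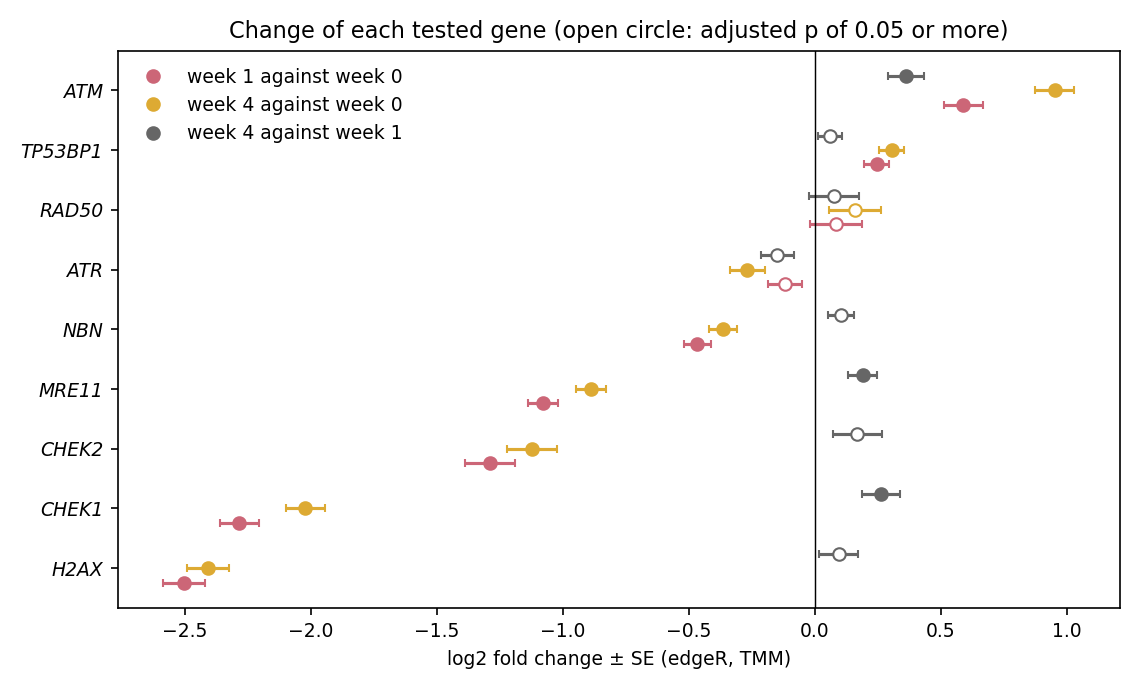
log2 fold change (horizontal axis) of each tested member with its SE, in the 3 comparisons, from edgeR with TMM scaling. Filled circles are called at an adjusted p under 0.05 and open circles are not. H2AX (-2.50) and CHEK1 (-2.28) lie farthest to the left at week 1 and ATM farthest to the right at week 4 (0.95).

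Levels of different genes were compared per length, as CPM per kilobase of the gene length in the deposited files. At week 0 H2AX stood at 63.0 ± 5.53 and CHEK1 at 7.84 ± 0.302, followed by TP53BP1 (5.99), MRE11 (4.34), CHEK2 (3.35), NBN (3.08), ATR (1.29), ATM (0.780) and RAD50 (0.338). CHEK2 overlapped both of its neighbours, MRE11 and NBN, and the other neighbours in this order did not overlap. At week 1 CHEK1 had moved from the second to the fifth place, at 1.61 ± 0.138, below TP53BP1 (7.10), NBN (2.23) and MRE11 (2.06), and it overlapped CHEK2 (1.37). At week 4 ATM (1.51 ± 0.112) stood above ATR (1.07 ± 0.0488) without overlap, the reverse of week 0. The deposited lengths are long for some members, 39841 bases for ATM against 1592 for H2AX, which lowers the per-length level of genes with rarely used exons. For NBN the deposited length is 19417 bases, against 6156 exonic bases in GENCODE 29. It is 27234 against 12496 for ATR, 39841 against 23972 for ATM, and 5600 against 6558 for CHEK1. Places in this order, such as that of NBN beside CHEK1, can be read only for the deposited lengths, and other lengths were not tried. The values of RAD50, TP53BP1 and ATR also carry the overlaps named above.

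**Figure D4:**
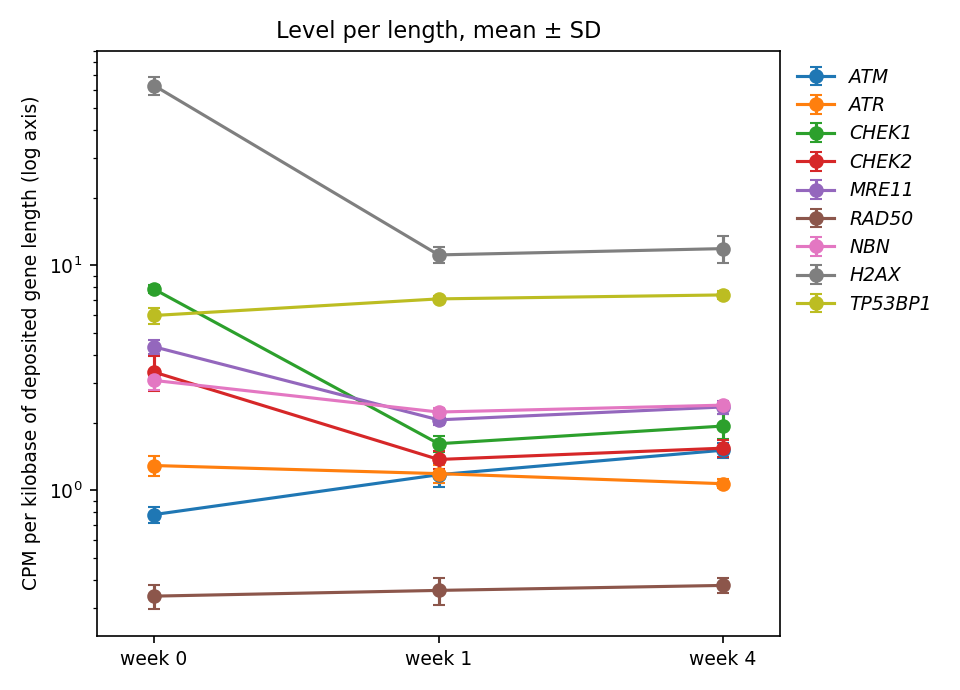
Level per length of each tested member (CPM per kilobase, log axis) at weeks 0, 1 and 4, as mean and SD over libraries. With the deposited lengths H2AX is highest and RAD50 lowest at each time, CHEK1 drops below MRE11 and NBN, and ATM passes ATR by week 4.

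Other genes of the pathway were taken from lists by role. The shares to set beside each list are those of all tested genes. These were 34% called lower and 32.9% higher at week 1, and 33.7% and 33.9% at week 4. Of 20 activators and partners of the kinases, 18 were lower and 1 higher at week 1, with a median log2 fold change of -0.87 against -0.02 for all tested genes, and 18 were lower and none higher at week 4. CLSPN encodes claspin, the adaptor through which ATR activates CHK1. It fell 7.27-fold at week 1, from 49.2 ± 5.02 to 6.77 ± 0.332 CPM (edgeR adjusted p = 1.0e-18). TIMELESS, a replication fork protection factor, fell 6.21-fold, from 83.4 ± 3.65 to 13.4 ± 0.354 CPM (adjusted p = 1.2e-19). HUS1, part of the clamp that helps activate ATR, was the gene called higher at week 1, by 1.09-fold (adjusted p = 0.045), and its log2 fold change was -0.043 without scaling factors. That call was lost when any 1 of 9 libraries was left out: week 0 replicates 1, 3, 5 and 6, week 1 replicates 1, 2, 3 and 6, and week 4 replicate 2. It was also lost with the replicate number as a block (edgeR adjusted p = 0.077), a file class term (0.052) or no filter (0.14). The same held with only the groups compared (edgeR adjusted p = 0.060) and with only the files without gene lengths (0.21). At week 4 HUS1 was 1.17-fold below week 0 (adjusted p = 3.7e-04).

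Of 20 genes for the ubiquitin steps at the break and for the effectors of 53BP1, 15 were lower and 3 higher at week 1 (median log2 fold change -0.60), against 34% and 32.9% of all tested genes. At week 4, 16 were lower and 2 higher (median -0.50), against 33.7% and 33.9% of all tested genes. The higher genes numbered 1 at week 1 and 0 at week 4 without scaling factors. With only the files without gene lengths they numbered 1 at week 4. BARD1, a subunit of a ubiquitin ligase of homologous recombination, fell 5.82-fold at week 1, from 20.1 ± 1.72 to 3.45 ± 0.414 CPM (edgeR adjusted p = 5.7e-16). BABAM2, a subunit of the BRCA1-A complex, rose 1.48-fold, from 14.4 ± 1.06 to 21.4 ± 0.996 CPM (adjusted p = 7.0e-09). NUDT16L1, whose product TIRR binds and holds back 53BP1, rose 1.22-fold at week 1 (adjusted p = 0.0013) and was 1.18-fold below week 0 at week 4 (adjusted p = 0.0068). The week 1 call was lost without scaling factors (log2 fold change 0.13, edgeR adjusted p = 0.11), and the week 4 call without week 0 replicates 1 and 4 (-0.12, adjusted p = 0.10).

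Of 12 genes for targets of the checkpoint kinases, 9 were lower and 1 higher at week 1 (median log2 fold change -1.74), against 34% and 32.9% of all tested genes. At week 4, 10 were lower and 2 higher (median -1.58), against 33.7% and 33.9% of all tested genes. The higher genes numbered 2 at week 1 with upper-quartile scaling and 1 at week 4 without scaling factors. CDC25B, a phosphatase that drives entry into mitosis, fell 4.24-fold at week 1, from 203 ± 16.8 to 47.9 ± 1.87 CPM (edgeR adjusted p = 6.5e-19). PLK1, a mitotic kinase, fell 15.4-fold, from 166 ± 6.10 to 10.8 ± 0.825 CPM (adjusted p = 3.4e-20). MDM2, which encodes the ligase that degrades p53, rose 2.41-fold, from 54.1 ± 3.94 to 130 ± 7.81 CPM (edgeR adjusted p = 2.0e-15). MDM2 is also in the list of p53 targets below and is counted in both lists.

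Of 10 phosphatase genes that end checkpoint signalling, 6 were lower and 1 higher at week 1 (median log2 fold change -0.19), against 34% and 32.9% of all tested genes. At week 4, 6 were lower and none higher, against 33.7% and 33.9% of all tested genes. PPP1CC, a catalytic subunit of protein phosphatase 1, fell 1.78-fold at week 1, from 133 ± 12.5 to 74.6 ± 3.11 CPM (edgeR adjusted p = 3.5e-12). PPP2CB, a catalytic subunit of protein phosphatase 2A, was the gene called higher at week 1, with a log2 fold change of 0.17 ± 0.06 SE (adjusted p = 0.014). That call was lost without scaling factors (log2 fold change 0.0066, edgeR adjusted p = 0.93) and without week 0 replicates 1 and 4 (0.065, adjusted p = 0.18), and 0 phosphatase genes were then called higher. The count was 2 without week 0 replicate 4, without week 1 replicate 1, and with RLE or upper-quartile scaling, DESeq2, the stricter filter, the replicate block or only the groups compared.

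The lists of p53 targets and of S phase and mitosis genes went in opposite directions. Of all tested genes, 32.9% were called higher and 34% lower at week 1, and 33.9% and 33.7% at week 4. Of 25 p53 target genes 22 were higher and none lower at week 1 (median log2 fold change 1.38), and 20 were higher and 2 lower at week 4 (median 1.04). Without scaling factors 3 of them were called lower at week 1. CDKN1A encodes the cell cycle inhibitor p21, and its level of 284 ± 14.2 CPM before treatment had risen 7.53-fold by week 1 and was 4.49-fold up at week 4 (edgeR adjusted p = 1.7e-21 and 3.0e-20). All 22 S phase and mitosis genes were lower at both times, with medians of -2.72 and -2.58, and MKI67 went from 410.3 ± 58.4 to 42.7 ± 4.61 and 66.5 ± 10.05 CPM. Earlier results of these data on CDKN1A and the proliferation genes were known when these lists were written, and the lists are no independent evidence of a direction. From week 1 to week 4, 14 of the S phase and mitosis genes rose and 1 fell, while 13 of the p53 targets fell and 3 rose. Between these times 21.8% of all tested genes were called higher and 18.6% lower. The count of S phase and mitosis genes that fell was 2 with only the groups compared and 0 with only the files without gene lengths.

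**Figure D5:**
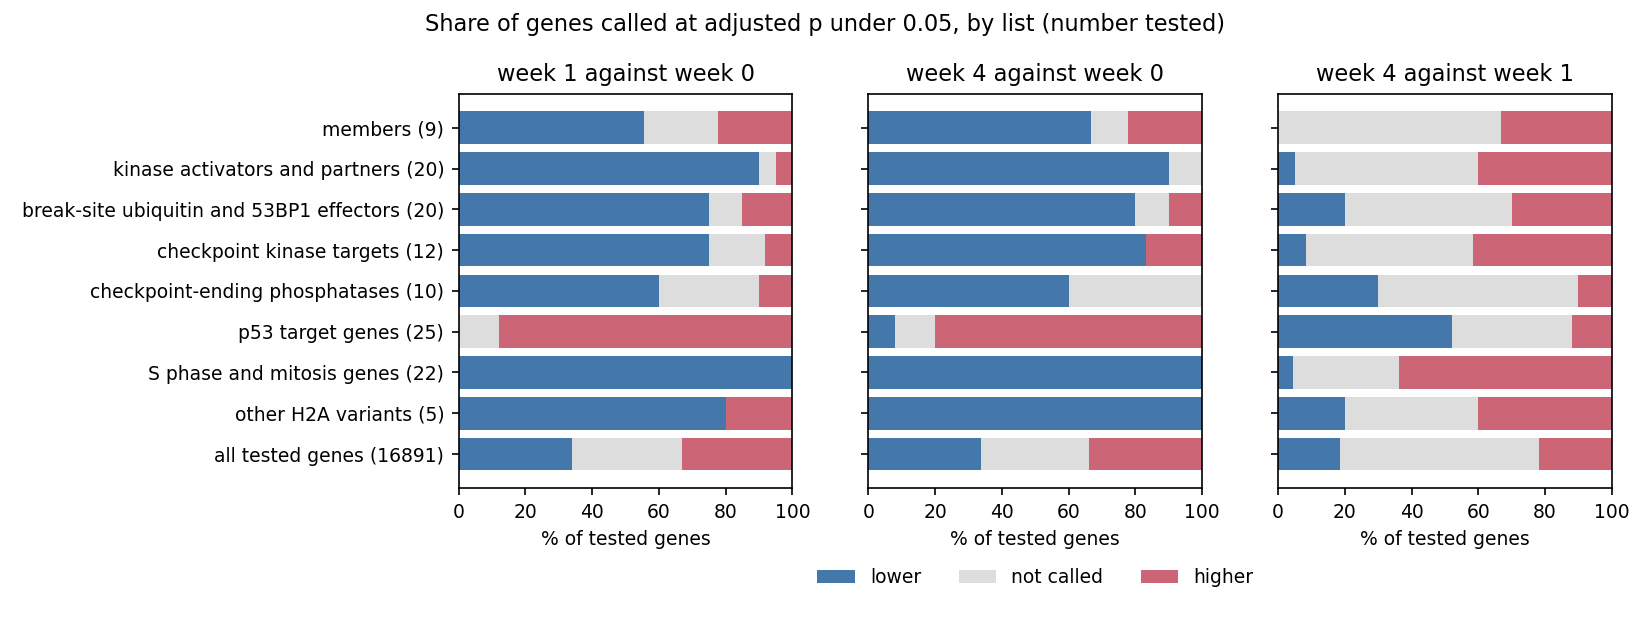
Share of the tested genes of each list (horizontal axis, percent) called lower, not called or called higher, in the 3 comparisons, with the number tested in brackets and all tested genes in the bottom bar. At week 1, 90% of the kinase activators and partners and 100% of the S phase and mitosis genes were lower, and 88% of the p53 targets were higher.

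The genes whose pattern was most like that of a member were taken as those with the highest Pearson correlation of log2 CPM over the 17 libraries, among 10109 genes with a mean of at least 5 CPM. The values describe libraries that share 3 group means and are no test. For CHEK1 they were ORC1, of the origin recognition complex, STIL, of centriole assembly, and MCM5, of the replicative helicase (r from 0.994 to 0.995). For H2AX they were the mitotic spindle genes TACC3 and TPX2 and the centromere histone chaperone gene HJURP (r from 0.996 to 0.997). For ATM they were CRYBG3, LNPEP, an aminopeptidase, and SEL1L, of protein quality control in the endoplasmic reticulum (r from 0.985 to 0.989).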

How the data were processed

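The deposited files give raw gene counts by symbol, not normalized, in 17 libraries. The submitters' processing notes list featureCounts 1.4.6, HISAT2 2.0.5.2 and the mouse build mm10, although the symbols are human. The build, strand setting and handling of shared reads are thus unclear and no gene coordinates from the files are used. Another value in 4 of the deposited files is a gene length in bases (week 0 replicates 5 and 6, week 1 replicates 1 and 2). Titles and treatment labels gave the groups. An unnamed entry, holding 0.221% to 0.289% of counts, was dropped.

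The main test was edgeR 4.0.16 (R 4.3.3) over all libraries (filterByExpr, TMM, a mean per group, quasi-likelihood test, call at an adjusted p under 0.05, SE as the fold change over the square root of F). The biological coefficient of variation was 11.7%. Ratios were tested by exact two-sided permutation, whose smallest p is 0.0043 (6 against 5 libraries) or 0.0022 (6 against 6). The planned pairs with MDC1 could not be formed. The 40 pairs of libraries within groups differed by more than sampling noise (chi-square per gene at least 7.38). Simulated counts served to test the edgeR script. Promoters and overlaps came from RefSeq (GRCh38.p14) and GENCODE 29, where H2AX was matched by its older symbol.

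The members, lists and tests were chosen with earlier results of these data known. Named genes are the members, CDKN1A, MKI67, per list up to 2 higher and 2 lower genes with the smallest adjusted p at week 1 (only some are given), and 3 genes most like CHEK1, ATM and H2AX. Alternatives were RLE, upper-quartile and no scaling, DESeq2 1.42.0, limma-voom (limma 3.58.1), and no and a stricter filter (5 CPM in 5 libraries). Further ones were fits restricted to the groups compared, a block for the replicate number, and file class as a term. Libraries were also left out: those whose files hold lengths (leaving 13 libraries), week 0 replicates 1 and 4, and each library in turn. For the ratios, 0.5 or 5 was added to the counts. The file class is whether a file also holds lengths.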

Additional observations from a re-analysis of the deposited data

Results flagged for a closer look

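Over 42 sets of member levels and ratios within a group, 6 held a library that stood apart from the rest by Dixon's criterion, which chance meets in about 1 of 20 sets. Week 0 replicate 1 was low for ATM (26.7 CPM, the others 31.3 to 32.8) and for ATR (29.1 CPM, the others 35.4 to 37.5). It is also the library with the highest ribosomal protein share (5.95%), whose part in these levels was not tested. Without it ATR was called lower at week 1, as given above, and ATM stayed called higher. Week 4 replicate 2 was low for ATM (51.5 CPM, the others 59.7 to 64.3) and for the log2 ratio of ATM to ATR (0.83, while the next lowest was 1.02). Week 1 replicate 1 was low for TP53BP1 (87.3 CPM, the others 91.8 to 94.2). Week 4 replicate 6 was high for NBN (49.8 CPM, the others 45.3 to 46.7).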

How the results depend on the processing

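All calls against week 0 of ATM, CHEK1, CHEK2, MRE11, NBN and H2AX, and of TP53BP1 and ATR at week 4, kept their direction and their side of the threshold in the 29 other settings. Without scaling factors the 3 comparisons had all-gene medians of -0.18, -0.19 and -0.02 (log2), and in the week 1 comparison 4344 genes were called higher and 7439 lower, against 5565 and 5740 with TMM (4201 and 7650 against 5722 and 5692 at week 4). Members called higher at week 1 then numbered 1 instead of 2, and the log2 fold changes of RAD50 (-0.080 at week 1, -0.036 at week 4) and HUS1 (-0.043 at week 1) changed sign. From week 1 to week 4, ATR was called lower without scaling factors, with only the groups compared, and without week 0 replicates 1 and 4, so that 1 member was called lower in place of 0. Leaving out single libraries gave 0 to 1. Without week 0 replicates 1 and 4 the log2 difference of RAD50 at week 1 was -0.034, and the NBN to RAD50 log2 ratio difference -0.40 (adjusted exact permutation p = 0.065).

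In the class of files without lengths, week 0 has 3 libraries and week 1 has 4. Against week 0 the exact permutation test there cannot go below p = 0.057 (0.024 for 6 against 3). No ratio passed in this class after adjustment over the 15 tests. At weeks 1 and 4 against week 0 the log2 differences were -0.91 and -0.80 for CHEK1 to CHEK2, 0.76 and 1.23 for ATM to ATR, -1.31 and -1.18 for MRE11 to RAD50, -0.69 and -0.65 for NBN to RAD50, and -2.88 and -2.80 for H2AX to TP53BP1. From week 1 to week 4, ATM to ATR was 0.47 (adjusted exact permutation p = 0.06). The adjustment is shared by all 15 tests, so the limits of the tests against week 0 also enter this adjusted p. The ratios at week 4 against week 0 had the same adjusted exact p. It therefore cannot show whether the ATM to ATR rise between the treated times was lost in this class. Leaving out single libraries, the uncalled week 4 against week 1 differences ran from -0.024 to 0.079 for NBN to RAD50 and from -0.010 to 0.086 for H2AX to TP53BP1, and the log2 fold change of RRM2, an S phase gene, from -0.0086 to 0.068.

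With the replicate number as a block, 2 members were higher and 5 lower at week 1, 2 and 6 at week 4, and 3 and 0 between them, as without it. Among the list results, the block ended the call of HUS1 and brought the higher phosphatase genes at week 1 from 1 to 2. Over all genes, 11096, 11180 and 6669 were called in the 3 comparisons with the block, against 11305, 11414 and 6835. Deviations of same-numbered libraries correlated at -0.04 to 0.07 over 16 pairs. Whether the numbers pair the libraries is not stated. These values cannot settle it, because libraries of different numbers were not correlated. The list results and the pair of H2AX and TP53BP1 were put through the settings after seeing the data. RAD50 is the tested member with the lowest counts, 274 to 433 per library, and what holds them low was not tested.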
